A study of Saccharomyces cerevisiae with 14 samples.

Results

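Budding yeast cells that lacked both RNases H carried Rad52 peaks at different places, and of different extents, when Sen1 was depleted than when Top1 was depleted. In the 2 libraries of the strain h1D-h2D_Sen1-AID the peaks were wider and ran farther past gene 3′ ends than in the 2 libraries of h1D-h2D_Top1-AID. The reach was longer in 176 of the 259 genes with 1 peak in each library (68%) and shorter in 19. Ribosomal protein, glycolytic and small nucleolar RNA genes were among them, as were other coding genes and tRNA genes. Between these 2 groups, peaks at ribosome biogenesis genes and at long coding genes were more frequent under Sen1 depletion. Peaks at translation elongation factor genes and Ty elements were more frequent under Top1 depletion. These 4 libraries are described here out of 14 in the series, and were chosen by strain and treatment alone. Their lists hold 1127 peaks, all on nuclear chromosomes, which were merged into 464 regions wherever peaks overlapped by at least 1 bp.

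The study mapped Rad52 by chromatin immunoprecipitation and sequencing as a marker of DNA damage linked to DNA-RNA hybrids. Both groups carry h1D-h2D, read here as loss of RNH1 and RNH201, the genes named in the study's design for the 2 RNases H, and both received 0.5 µM auxin for 4 h in strain background 288C. One group carries Sen1 and the other Top1 with an auxin-inducible degron (AID), a tag through which auxin triggers destruction of the protein. The genotype label of the Top1 group reads h1D-h2D_Top1 while its titles read Top1-AID, and the labels do not say whether replicates came from separate cultures, so the spread between them may be technical. The other auxin-treated libraries used for comparison are wild type (WT, 2), h1D-h2D (2), Sen1-AID (2) and Top1-AID (1), in which the RNase H genes are intact except in h1D-h2D. Depletion of either protein was not measured in these files.

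A DNA-RNA hybrid forms when a transcript pairs again with its template strand, and the structure with the displaced strand is called an R-loop. RNase H1 and RNase H2 degrade the RNA of such hybrids, Sen1 is a helicase that unwinds them and that ends transcription of short noncoding genes together with Nrd1 and Nab3, and Top1 relaxes the negative supercoils that build up behind RNA polymerase. Rad52 is a recombination protein that collects at DNA breaks under repair.

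The lists were of similar length. The h1D-h2D_Sen1-AID replicates held 286 and 305 peaks over 791 and 799 kb, with median widths of 2043 and 2061 bp. The h1D-h2D_Top1-AID replicates held 282 and 254 peaks over 679 and 511 kb, with median widths of 1868 and 1400 bp. The Sen1-depleted lists thus held more peaks, wider peaks and more covered length, and the second Top1-depleted list was the narrowest. The remaining 7 auxin libraries held 454 to 731 peaks. An exact permutation test of 2 libraries against 2 has 6 splits and cannot give a two-sided p below 0.333, so every difference below without overlap between the groups has p = 0.333 and is described by its values.

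No peak of the 4 libraries lay on SEN1, RNH1 or TOP1. RNH201 (chromosome XIV, 490317 to 491240, sacCer3) was touched at its edge in both h1D-h2D_Sen1-AID libraries, by a peak that covered RPL16B, and in no other auxin library. The peak lists give no reads, so the deletions themselves cannot be read from them.

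Of the 464 regions, 114 held a peak in all 4 libraries. Another 85 regions (18.3% of all regions) held one in both h1D-h2D_Sen1-AID libraries and in neither h1D-h2D_Top1-AID library. The reverse held for 61 regions (13.1%). In the remaining 204 regions at least 1 group had a peak in 1 of its 2 libraries: 114 held a peak in a single library, 72 in 3 libraries and 18 in 1 library of each group. Covered bases of libraries from different groups overlapped with a Jaccard index (shared length over joint length) of 0.207 to 0.298.

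**Figure D1:**
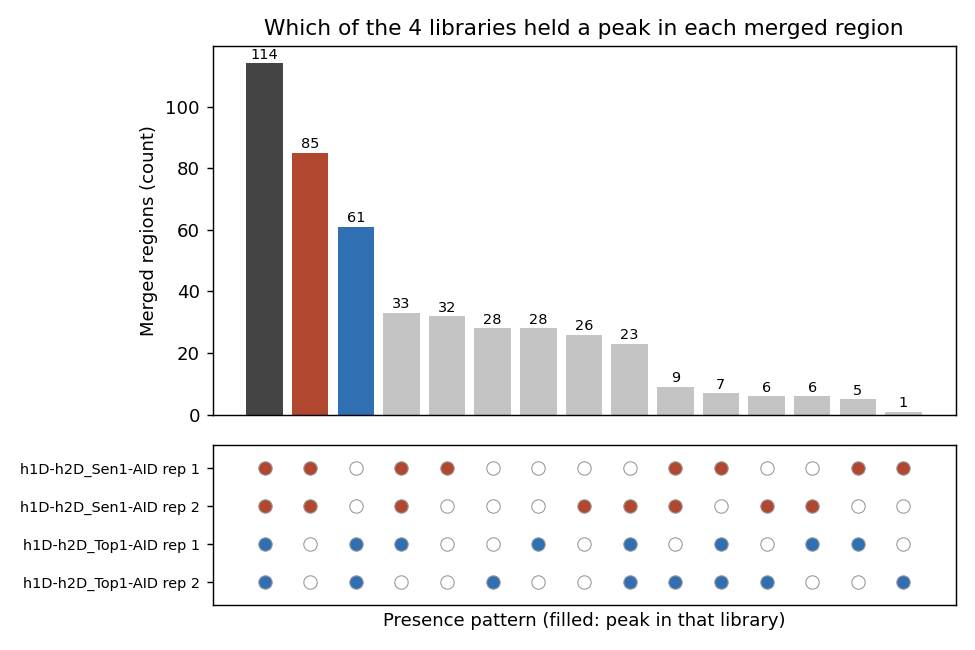
Number of merged regions (vertical axis, count) with each presence pattern over the 4 libraries; filled circles below each bar mark the libraries with a peak, red for h1D-h2D_Sen1-AID and blue for h1D-h2D_Top1-AID. The 3 tallest bars are the regions in all 4 libraries (114, dark), in the Sen1-depleted libraries only (85, red) and in the Top1-depleted libraries only (61, blue).

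The regions common to all 4 libraries were led by highly transcribed genes. The 6 with the highest mean score percentile, the rank of the peak's score within its own list, lay over RSC30 and the neighbouring copper metallothionein array CUP1, over the alcohol dehydrogenase gene ADH1, over TDH3 (glyceraldehyde-3-phosphate dehydrogenase) with HIP1, over TEF1 (translation elongation factor eEF1A) with GRS2, over the ribosomal protein gene RPL8A, and over SED1, a cell wall glycoprotein gene. ADH1 ranked at percentiles 99.3 and 99.7 under Sen1 depletion and 99.6 and 98.8 under Top1 depletion. Its peak was 2340, 2333, 2393 and 2218 bp wide in the same order, so that rank and width both overlapped between the groups. CUP1 and TEF1 have near-identical copies, and how the authors placed reads that match several copies is not given in the sources used here.

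The regions called in 1 group only differed in whether other strains held them. Of the 61 regions found under Top1 depletion only, 41 held a peak in all 7 other auxin libraries and 51 in both WT libraries, and 1 (1.64%) held none in any of the 7. Of the 85 found under Sen1 depletion only, 32 held a peak in all 7 others and 47 in both WT libraries, and 27 (31.8%) held none. The 1 region of Top1 depletion without a peak elsewhere was the Ty locus YOL103W-B on chromosome XV, ranked at percentiles 33.3 and 31.9. The genes that named the Sen1-only regions had a median coding length of 1887 bp (83 genes), against 1164 bp for the Top1-only regions (45 genes) and 1233 bp for the regions in all 4 (99 genes). It was 1551 bp for the remaining 204 regions (177 genes) and 1191 bp over all 5958 nuclear coding genes outside Ty elements. A region takes its name from the gene it covers most, which can favour long genes, so the value over all genes is not a like background.

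The highest-ranked Sen1-only region covered AHP1, a thioredoxin peroxidase gene, and CCW12, a cell wall mannoprotein gene, at percentiles 96.5 and 97.4 (chromosome XII, 368151 to 370761). It held a peak in all 7 other auxin libraries and none in either h1D-h2D_Top1-AID library. The next were EXG1, an exoglucanase gene, at 92.0 and 95.7, and ACO1 (aconitase) with STT4 (phosphatidylinositol 4-kinase) at 93.0 and 89.5. FAA4, a fatty acyl-CoA synthetase gene, was covered at its 3′ end together with SNR86 at 91.3 and 89.8. Lower in the same list stood SSC1, the mitochondrial Hsp70 gene, with a peak 5829 and 5612 bp wide, and SER3 with SRG1, the noncoding transcript known to repress it, beside UTP7 at 75.2 and 70.5. These were loci where Rad52 peaks were also found in WT cells, apart from FLO11 and SPT16 with CHC1, which held none in any of the 7 other libraries.

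The highest-ranked Top1-only regions lay over PDC1 (pyruvate decarboxylase), FBA1 (fructose-bisphosphate aldolase), ILV5 (branched-chain amino acid synthesis) and RPL28. ILV5, on chromosome XII within 837215 to 839565, ranked at 98.2 and 94.9 and was covered from end to end. The regions over HSP150 and CIS3, both genes of cell wall mannoproteins, ranked at 91.5 and 96.5, and that over UTR5 and HYP2, the gene of translation factor eIF5A, at 93.6 and 92.5. All of these also held peaks in both WT libraries. SUN4 with RPL9B (85.5 and 86.6) and RPL7A with the intronic SNR39 (86.5 and 84.3) followed, and each was also covered in all 7 other auxin libraries.

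Locus classes were divided unequally between the calls. Over all 1278 genes that a peak touched in any of the 4 libraries, 20.8% were touched in both Sen1-depleted libraries only and 11% in both Top1-depleted libraries only. Of 13 touched ribosome biogenesis genes, from a list of 41, 8 were Sen1-only (61.5%) and 1 was Top1-only. Of 47 touched coding genes of at least 4 kb, 17 were Sen1-only (36.2%) and 3 Top1-only. Of 8 touched translation elongation factor genes, from a list of 11, 6 were Top1-only (75%) and 1 Sen1-only, and of 30 touched Ty genes 10 were Top1-only (33.3%) and 2 Sen1-only. Shares for tRNA genes (13% and 9.47% of 169) and for snoRNA and snRNA genes (12.9% each of 62) lay closer to those over all genes.

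Ribosome biogenesis genes, whose products process ribosomal RNA and assemble the subunits, were touched 11 and 10 times in the h1D-h2D_Sen1-AID libraries and 1 and 2 times in the h1D-h2D_Top1-AID libraries. The mean difference was 9 genes, against SDs of 0.707 in each group (n = 2), and h1D-h2D cells without depletion had 8 and 5. WT cells had 11 and 9 and Sen1-AID cells 12 and 4, all from longer lists. The share of peaks that touched these genes was 3.497 and 2.951% under Sen1 depletion and 0.355 and 1.181% under Top1 depletion. It was 1.652 and 1.459% in WT and 1.104 and 0.865% in h1D-h2D libraries. By share, the Sen1-depleted libraries thus lay above the WT and h1D-h2D libraries. The Top1-depleted libraries lay below the WT libraries and on either side of the h1D-h2D libraries. The 8 Sen1-only members were NOP15 and YTM1 (assembly of the large subunit), UTP7, UTP10 and RRP12 (processing of the small subunit RNA), NOP1, the methyltransferase fibrillarin, NSR1, a nucleolin-like protein, and the helicase gene DRS1. NOP15 ranked at 87.8 and 79.7 in the 2 libraries and DRS1 at 5.59 and 1.97. UTP10, NSR1, RRP12 and DRS1 were touched in no other auxin library, while YTM1 and NOP1 were touched in all 7. The 1 Top1-only member was UTP20, whose peak also covered the histone pair HTA2 and HTB2 (27.3 and 57.1).

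Translation elongation factor genes showed the reverse. Only 2 of the 11 were touched in each h1D-h2D_Sen1-AID library and 7 in each h1D-h2D_Top1-AID library. WT and h1D-h2D cells had 8 in both libraries. With RNase H intact, both Sen1-AID libraries and the Top1-AID library also had 8, so the low count was not seen under Sen1 depletion alone. All of these came from longer lists. TEF1 was touched in all 4. TEF2, its near-identical copy, was touched only under Top1 depletion (94.0 and 94.5), as were TEF4 (85.8 and 77.2) and EFB1 (25.5 and 56.7), which encode further subunits of the eEF1 complex, and YEF3, the fungal factor eEF3 (89.4 and 79.5). The 2 genes of eEF2, whose coding sequences are nearly the same, had opposite calls: EFT1 was touched only under Sen1 depletion (90.6 and 86.6) and EFT2 only under Top1 depletion (52.8 and 73.6). Which copy the reads came from cannot be told apart here, for TEF1 and TEF2 as for EFT1 and EFT2.

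Other translation genes leaned the other way. Of 26 translation initiation factor genes, 9 and 7 were touched under Sen1 depletion and 5 and 3 under Top1 depletion. WT libraries had 8 and 8, h1D-h2D libraries 5 and 4, Sen1-AID libraries 9 and 4 and the Top1-AID library 7, from longer lists. Of 11 touched in any of the 4, 4 were Sen1-only (36.4%) and 1 Top1-only (9.09%), against 20.8% and 11% over all touched genes. Of 18 aminoacyl-tRNA synthetase genes, 5 and 4 were touched under Sen1 depletion and 2 and 0 under Top1 depletion. WT libraries had 7 and 6 and h1D-h2D libraries 4 and 2. The Sen1-only members were ILS1, CDC60 and THS1, of 6 touched in any of the 4. The initiation genes touched under Sen1 depletion only were TIF4631 (eIF4G), FUN12 (eIF5B), TIF34 (an eIF3 subunit) and CDC33 (eIF4E), while GCD6, an eIF2B subunit gene, was touched under Top1 depletion only (63.8 and 68.1). Proteasome genes numbered 6 and 3 against 1 and 1, with 9 and 6 in WT, 8 and 6 in h1D-h2D and 14 and 3 in Sen1-AID libraries. In all 3 classes the groups did not overlap. They did overlap for proteasome genes with 1 kb windows (a difference of 1 gene in place of 3.5), and for initiation genes at the score limit (1 in place of 4) and with equal list lengths (3).

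Fewer ribosomal protein genes were touched in these 4 libraries than in the other 7 auxin libraries, which held 97 to 134. The 4 lists were also shorter, with 254 to 305 peaks against 454 to 731. The share of peaks that touched these genes was 19.2 and 18.4% under Sen1 depletion and 23.4 and 22.8% under Top1 depletion. It was 18.3 and 19.9% in WT and 19.1 and 20.9% in h1D-h2D libraries, so it was not lower in the 4 as a set. The gene counts were 58 and 58 under Sen1 depletion and 72 and 60 under Top1 depletion, of 137, against 132 in both h1D-h2D libraries. Of 92 touched in any of the 4, 29 were touched in all, 5 were Sen1-only (5.43%) and 16 were Top1-only (17.4%). RPS19B was the highest-ranked Sen1-only member (74.1 and 69.8) and RPL28 the highest-ranked Top1-only member (96.8 and 95.3). With only peaks scoring at or above the pooled median, the difference turned to 5.5 more genes under Sen1 depletion, and many of these genes have a paralog of near-identical sequence.

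Ty elements, the retrotransposons of yeast, were touched 12 and 13 times under Sen1 depletion and 21 and 24 times under Top1 depletion, of 44 annotated genes. The top Top1-only loci were YDR365W-B (97.9 and 51.6), YHR214C-B (92.6 and 81.5) and YPR158C-D (92.2 and 89.4). Among the 9 Ty regions held by all 4 libraries, all 9 peaks were wider under Sen1 depletion. Ty copies are near-identical, so the copy a peak came from is uncertain.

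Glycolytic and fermentation genes touched by a peak numbered 11 and 10 against 10 and 10 of 21, so the groups overlapped. PDC1 and FBA1 were Top1-only, and PFK1 (17.1 and 41.3) and ENO1 (34.6 and 29.2) were Sen1-only. Long coding genes numbered 32 and 25 under Sen1 depletion and 17 and 6 under Top1 depletion, of 196. WT libraries had 45 and 31 and h1D-h2D libraries 45 and 29, from longer lists. The share of peaks was 10.8 and 8.85% under Sen1 depletion and 5.67 and 2.76% under Top1 depletion. It was 7.51 and 5.19% in WT and 7.73 and 5.19% in h1D-h2D libraries. The Sen1-only long genes with the highest rank were STT4, FLO11, CHC1 (clathrin heavy chain), GEA2 (an exchange factor of vesicle transport) and NUP170 (a nucleoporin). Of these FLO11, CHC1, GEA2 and NUP170 were touched in no other auxin library. PDR5, a drug efflux transporter gene, was the highest-ranked Top1-only long gene (55.3 and 66.9).

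**Figure D2:**
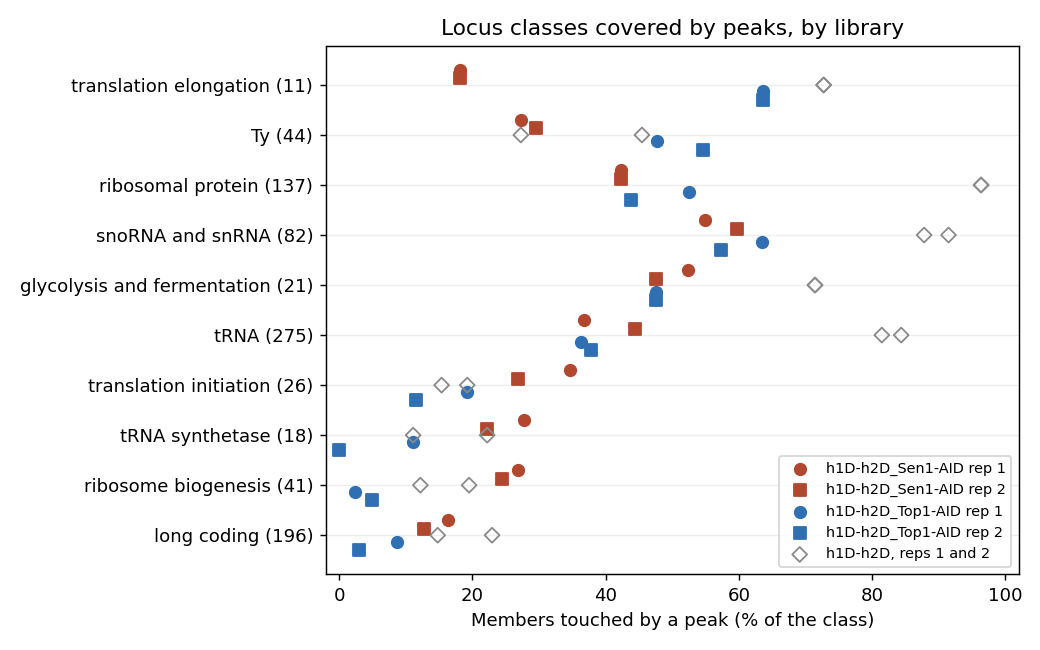
Share of each locus class touched by a peak (horizontal axis, % of the members, whose number stands in brackets), with 1 point per library: red for h1D-h2D_Sen1-AID, blue for h1D-h2D_Top1-AID, open grey diamonds for h1D-h2D. Translation elongation genes lie at 2 and 2 against 7 and 7 of 11, and ribosome biogenesis genes at 11 and 10 against 1 and 2 of 41, with no overlap between red and blue.

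Over the 21 classes, the groups did not overlap in 13, of which 9 were higher under Sen1 depletion and 4 under Top1 depletion. Each of these has p = 0.333 in the exact permutation test of 2 against 2. A second test set the 4 libraries depleted of Sen1, with or without RNase H, against the 3 depleted of Top1, an exact permutation test that can reach p = 0.0286. None of the 21 classes passed it, the smallest p adjusted by the Benjamini-Hochberg method over the 21 was 0.72 (exact permutation test), and 0 had an unadjusted p under 0.05. For the share of peaks touching a class, ribosomal protein genes had the only unadjusted p under 0.05. That share was 19.2 and 18.4% without RNase H and 16.6 and 20.0% with it under Sen1 depletion. Under Top1 depletion it was 23.4 and 22.8% without and 22.0% with RNase H. The groups did not overlap (p = 0.0286, exact permutation test, two-sided, or 0.111 with splits within RNase H genotype), and the p adjusted over the 23 shares was 0.657.

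Within the 114 shared regions, more peaks ranked higher and were wider under Sen1 depletion than under Top1 depletion. The score percentile was higher in both h1D-h2D_Sen1-AID libraries in 54 regions (47.4%) and higher in both h1D-h2D_Top1-AID libraries in 23 (20.2%). A rank depends on the other peaks of its list. Sen1-only regions had median percentiles of 41.6 and 32.5 in their lists, and Top1-only regions 50.7 and 57.5. The ranks therefore do not compare signal strength between the groups. Peaks were wider in both Sen1-depleted libraries in 80 regions (70.2%) and wider in both Top1-depleted libraries in 7 (6.14%). The median difference in width over the 114 was 470 bp. The 8 glycolytic regions combined both patterns: 7 were wider under Sen1 depletion and 5 ranked higher under Top1 depletion.

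The region over MRI1, a methionine salvage gene, and the noncoding gene YNCP0017C had the largest rank difference in favour of Sen1 depletion. Its percentiles were 83.6 and 75.7 against 13.5 and 27.6. Regions are named by the gene they cover most, which need not be the source of the peak. RPL35A with UFD2 ranked at 72.7 and 54.8 against 22.3 and 1.97. The region over XBP1, a gene of a stress-induced repressor, also covered YIL102C and the noncoding gene YNCI0002W. It ranked at 80.8 and 83.3 against 21.3 and 40.6. In each the 2 groups were apart. Towards Top1 depletion stood GCN4, the activator of amino acid synthesis genes, at 42.0 and 18.03 against 78.4 and 85.4. SHR5 with ZEO1 ranked at 41.3 and 58.4 against 86.9 and 91.7, and ERG3, a sterol desaturase gene, with MNL2 at 10.1 and 56.1 against 68.8 and 89.0.

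The largest difference in width among coding and snoRNA loci lay over SNR10 and MAD1, where the peak was 5866 and 6445 bp wide under Sen1 depletion and 1384 and 1240 bp wide under Top1 depletion. The region from the SNR72 to SNR78 cluster to ERG5 measured 6821 and 6817 bp against 2610 and 2668 bp, and that over PGK1 and POL4 6359 and 6455 bp against 2761 and 2333 bp. At both loci the narrow peaks of Top1 depletion had the higher rank, 95.4 and 92.9 against 69.2 and 72.5 at SNR72 to SNR78 and 94.3 and 93.7 against 79.7 and 80.3 at PGK1. The 7 regions wider under Top1 depletion differed by less, the largest being RPL2B with 2227 and 2085 bp against 3040 and 2679 bp. STE2, the gene of the pheromone receptor, measured 1798 and 2304 bp against 2447 and 2381 bp.

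Gene ends were compared by taking, for each peak, the coding gene of which it covered most bases. The annotation holds coding spans, so that the 3′ end is the end of the reading frame. Peaks that lay over the 3′ end only made up 59.5 and 54.3% of such peaks under Sen1 depletion (156 of 262 and 146 of 269, exact 95% intervals 53.3 to 65.5% and 48.1 to 60.3%). They made up 37.8 and 46.6% under Top1 depletion (85 of 225 and 88 of 189, intervals 31.4 to 44.5% and 39.3 to 53.9%). The intervals cover counting error only. The means were 56.9% ± 3.72 and 42.2% ± 6.21 (SD, n = 2 each), the groups did not overlap, and the nearest libraries, at 54.3 and 46.6%, had intervals that overlapped. All 7 other auxin libraries lay between 24.4 and 38.1%. With genes overlapped by exactly 1 peak in place of the most covered gene, the difference was 5.64 points in place of 14.7. With each peak replaced by the 1 kb around its midpoint it was 4.41 points and the groups overlapped. Coding genes outside the ribosomal protein set differed by 10.7 points, and by 4.26 with the 1 kb windows and 3.27 with exactly 1 peak, where the groups overlapped in both cases.

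Ribosomal protein genes showed a wider gap. Peaks over their 3′ end only were 64.0 and 56.8% (16 of 25 and 21 of 37) under Sen1 depletion and 19.7 and 45.5% (12 of 61 and 25 of 55) under Top1 depletion. In WT cells the share was 0 of 95 and 0 of 104 peaks, and the rest covered both ends. The second Top1-depleted library, with the narrowest peaks, lay closer to the Sen1-depleted libraries than to the first, and the difference of 27.8 points was 40.7 without it and 14.9 without the first Top1-depleted library.

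**Figure D3:**
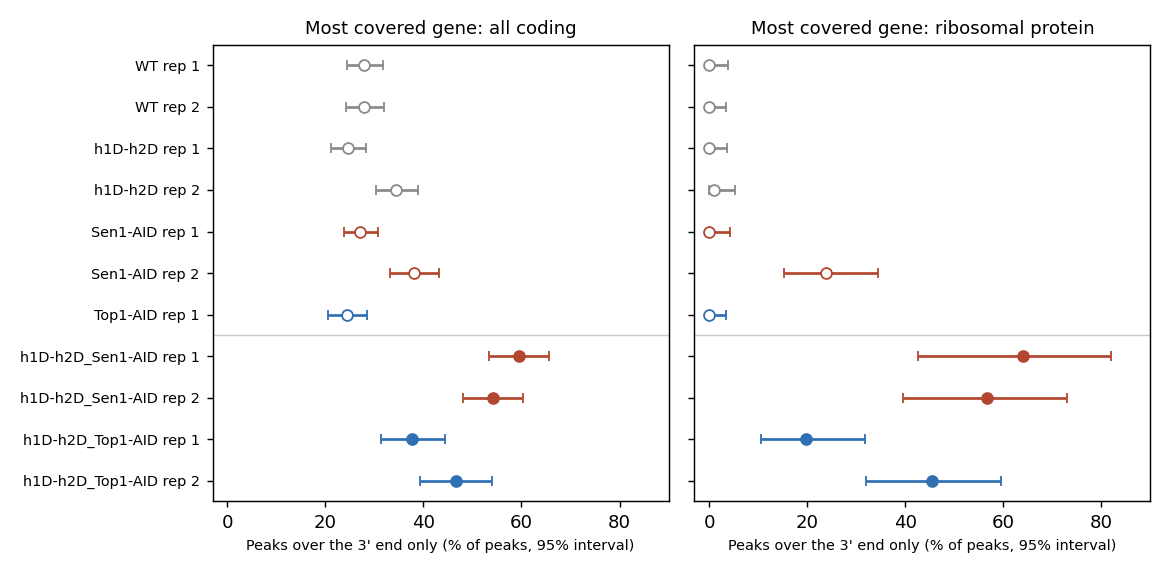
Share of peaks that lie over the 3′ end only of their most covered gene (horizontal axis, %, with exact 95% binomial intervals), for all coding genes (left) and ribosomal protein genes (right), 1 row per auxin library. The filled red points (h1D-h2D_Sen1-AID, 59.5 and 54.3% of all coding genes) lie to the right of the filled blue points (h1D-h2D_Top1-AID, 37.8 and 46.6%), and open points are libraries of the other strains.

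Gene ends were also counted by presence call. In the Sen1-only regions 66.3 and 66.7% of the peaks on coding genes lay over the 3′ end only (55 of 83 and 56 of 84). In the Top1-only regions it was 22.2 and 36.2% (10 of 45 and 17 of 47), and 66.7 and 51.1% covered both ends. In the 114 shared regions the values were 44.3 and 45.9% against 36.8 and 50.6%, so the groups overlapped. Whether called and shared regions differ in this was not tested.

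The 27 regions found under Sen1 depletion and in no other auxin library had the highest share of peaks over the 3′ end. Of the 26 peaks on coding genes, 23 and 22 lay over the 3′ end only in the 2 libraries (88.5 and 84.6%) and none over the 5′ end only. The next gene past that end pointed towards it, as a convergent neighbour, for 18 of 23 and 18 of 22 peaks (78.3 and 81.8%). In all Sen1-only regions, which include these 27, it did so for 36 of 55 and 34 of 56 (65.5 and 60.7%). In the 114 shared regions the share was 53.5 and 53.3% under Sen1 depletion and 54.3 and 53.3% under Top1 depletion. In the Top1-only regions it was 40 and 35.3%. Whether these shares differ was not tested. Among the 27 regions were FUN12, CHS3 (chitin synthase, with the uracil permease gene FUR4), SAC6 (fimbrin), PDE2 (cyclic AMP phosphodiesterase) and PDR12 (a weak acid exporter). The region over CHS3 spanned 282884 to 285600 on chromosome II and ranked at 62.9 and 50.5, and that over PDR12 spanned 442652 to 448757 on chromosome XVI and ranked at 53.5 and 51.1. Most others ranked in the lower part of their lists, down to RRP12 (34.97 and 30.8), HOS3 (12.6 and 4.92) and DRS1.

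Reach past each gene was then measured in 259 genes that held exactly 1 peak in each of the 4 libraries. The peak reached farther past the 3′ end in both Sen1-depleted libraries in 176 genes (68%) and in both Top1-depleted libraries in 19 (7.34%). Past the 5′ end the counts were 133 (51.4%) and 30 (11.6%). The offset of the peak's midpoint from the gene's midpoint, positive towards the 3′ end, was higher under Sen1 depletion in 131 genes (50.6%) and under Top1 depletion in 71 (27.4%). The Sen1-depleted peaks were the wider ones, and replacing each peak by the 1 kb around its midpoint gave 68 and 35 genes for the offset.

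**Figure D4:**
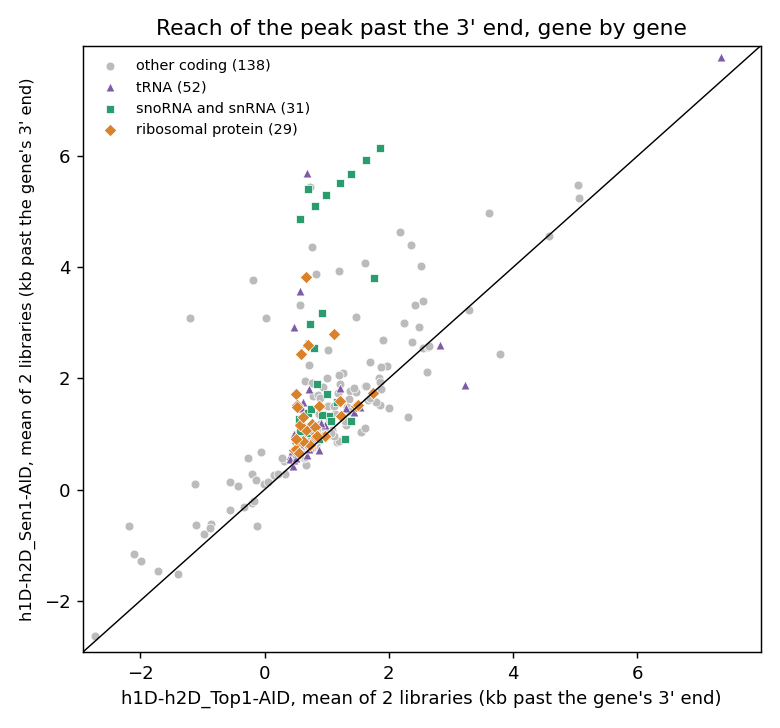
Reach of the peak past the 3′ end of each gene (kb; negative where the peak stops inside the gene), as the mean of 2 h1D-h2D_Sen1-AID libraries (vertical axis) against the mean of 2 h1D-h2D_Top1-AID libraries (horizontal axis), for 4 sets of genes with 1 peak in each library. Points above the line reach farther under Sen1 depletion, as 27 of 31 snoRNA and snRNA genes and 23 of 29 ribosomal protein genes did in every pair of libraries. The snoRNA genes SNR72 to SNR78 share 1 peak, so their points are not independent.

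The sets of genes divided on the offset. Ribosomal protein genes had the higher offset under Sen1 depletion in 23 of 29 and under Top1 depletion in 1, and snoRNA and snRNA genes in 25 and 3 of 31. Among the 138 other coding genes the counts were 46 and 60, and their median difference was -25 bp. Over all other coding genes with 1 peak in the library concerned, not only those common to all 4, the median offset was 753 and 597 bp under Sen1 depletion and 586 and 492 bp under Top1 depletion, the opposite direction and without overlap. These other genes reached farther past both ends under Sen1 depletion, 85 past the 3′ end and 89 past the 5′ end. Ribosomal protein genes reached farther past the 3′ end in 23 and past the 5′ end in 2. Neighbouring genes can share 1 peak, as the snoRNA genes SNR72 to SNR78 do, so these counts are not independent.

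RPL3, which encodes a protein of the large subunit (chromosome XV, 444686 to 445849, plus strand), had the largest difference in offset of the ribosomal protein genes. Its peak ended 3861 and 3789 bp past the 3′ end under Sen1 depletion and 741 and 598 bp past it under Top1 depletion. The other auxin libraries lay between 608 and 1619 bp, so that both Sen1-depleted libraries stood above all others. The peak's offset was 1860 and 1792 bp against 143 and 132 bp, and its 5′ border lay 142 and 205 bp against 455 and 333 bp before the gene. RPL32 ended 2282 and 2584 bp against 626 and 555 bp past its 3′ end, RPS23A 2687 and 2517 bp against 675 and 715 bp, and RPS7A 1523 and 1435 bp against 560 and 489 bp. RPL16B, whose peak under Sen1 depletion reached the edge of RNH201, ended 2791 and 2802 bp against 1585 and 649 bp past its 3′ end. In all of these the groups were apart.

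Some ribosomal protein genes did not follow. RPS22A ended 1563 and 1493 bp past its 3′ end under Sen1 depletion and 1508 and 1495 bp past it under Top1 depletion, values that overlapped, and had the higher offset under Top1 depletion (655 and 698 bp against 701 and 869 bp). RPS20 ended 953 and 975 bp against 1038 and 910 bp. RPL30 ended 1774 and 1710 bp against 1815 and 1684 bp, while its 5′ border lay 179 and 318 bp against 2553 and 655 bp before the gene. Its higher offset under Sen1 depletion therefore lay with the 5′ border and not with the 3′ border.

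Glycolytic and elongation factor genes with 1 peak in each library numbered 9, and all 9 reached farther past the 3′ end under Sen1 depletion. PGK1, the phosphoglycerate kinase gene (chromosome III, 137746 to 138996, plus strand), ended 4370 bp past its 3′ end in both Sen1-depleted libraries and 867 and 669 bp past it in the Top1-depleted ones. The other 7 auxin libraries lay between 722 and 845 bp. ENO2, the enolase gene, ended 4011 and 3757 bp against 821 and 824 bp, and TEF1 2535 and 1312 bp against 862 and 677 bp. At TDH2 the values were 4118 and 5136 bp against 3481 and 877 bp, so the first Top1-depleted library was long too. ADH1, the top-ranked glycolytic region, ended 875 and 779 bp against 773 and 723 bp, a small difference beside those at PGK1 and ENO2.

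**Figure D5:**
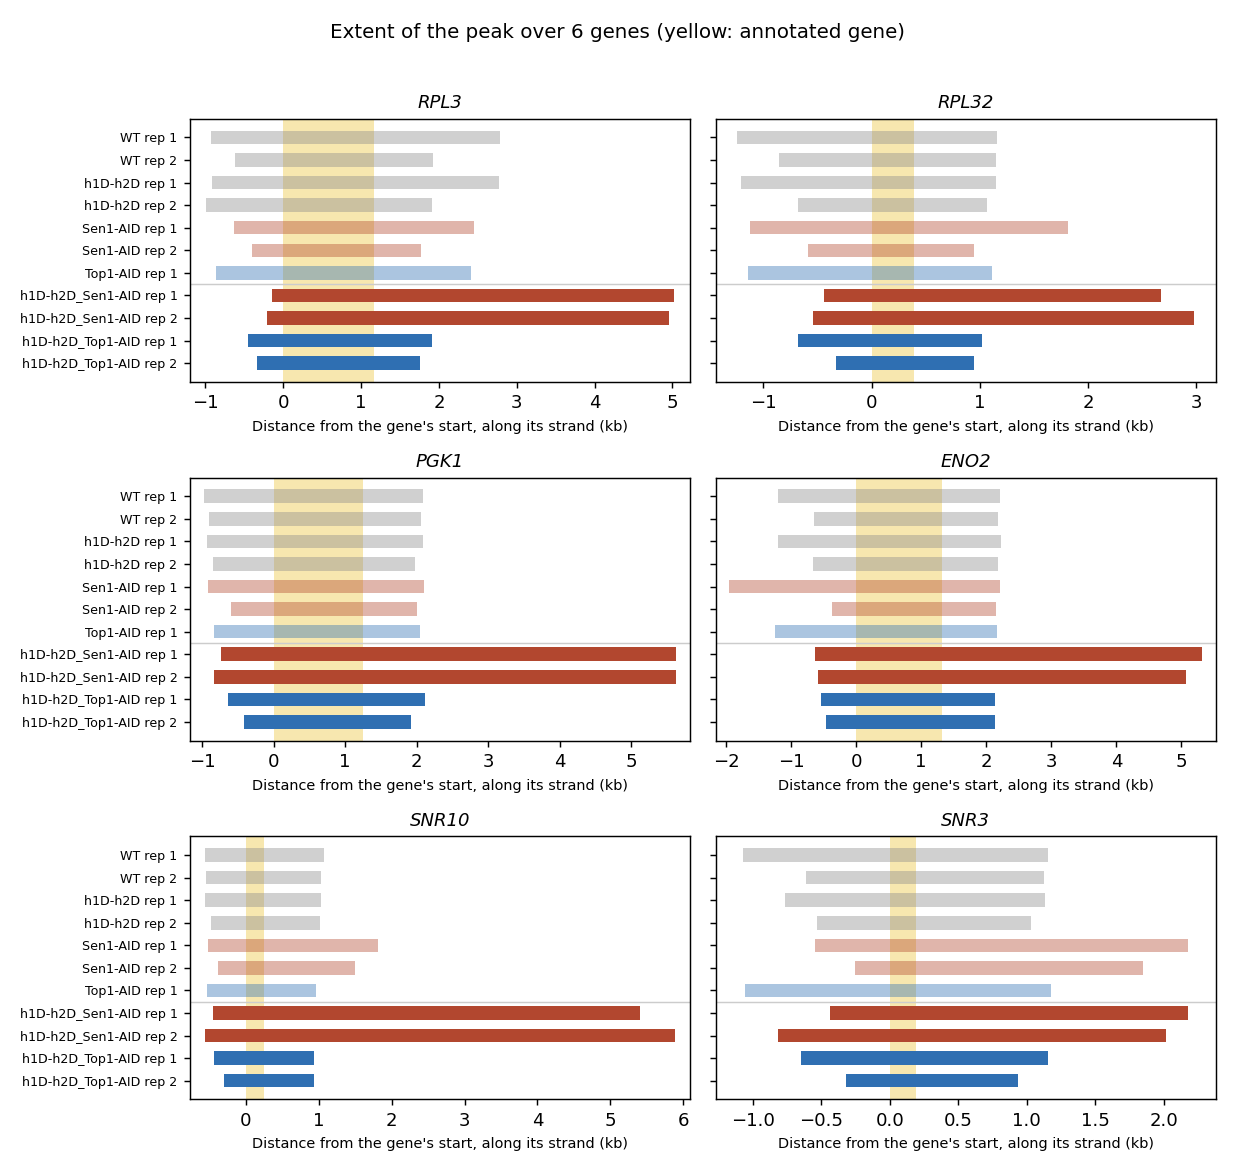
Extent of the peak over 6 genes in each auxin library (horizontal axis, kb from the gene's start along its strand; yellow band, annotated gene; dark bars, the 4 libraries compared; pale bars, other strains). At RPL3, PGK1 and ENO2 the red bars of h1D-h2D_Sen1-AID end 3757 to 4370 bp past the gene while the blue bars of h1D-h2D_Top1-AID end 598 to 867 bp past it, and at SNR3 the pale red bars of Sen1-AID are long as well.

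Many snoRNA and snRNA genes have transcripts of their own that the Nrd1-Nab3-Sen1 complex ends, while others lie in introns of coding genes. They were the set whose reach and offset separated all 4 libraries depleted of Sen1 from all 3 depleted of Top1, whatever their RNase H genotype. Without RNase H the median reach past the 3′ end was 1346 and 1520 bp under Sen1 depletion and 831 and 740 bp under Top1 depletion. With RNase H it was 1701 and 1311 bp under Sen1 depletion and 858 bp under Top1 depletion. WT libraries had 915 and 832 bp and h1D-h2D libraries 899 and 752 bp. All 4 Sen1-depleted libraries thus lay above the 3 Top1-depleted ones and above the 4 libraries with neither depletion.

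The means were 1470 ± 179 bp (SD, n = 4) and 810 ± 62.0 bp (n = 3), with p = 0.0286 in the exact permutation test and 0.0556 with splits within RNase H genotype, each the smallest the test can give. The difference was 648 bp both with and without RNase H. The offset behaved alike, at 433 and 509 bp against 132 and 128 bp without RNase H and 418 and 348 bp against 16.2 bp with it (exact permutation p = 0.0286 and 0.0556). Adjusted over the 28 position measures, both exact permutation tests had p = 0.4, so neither passed. With each peak cut to 1 kb around its midpoint, the differences were 202 bp for the reach and 183 bp for the offset, both with exact permutation p = 0.0571. At that fixed width the reach and offset of a gene differ by a constant, so the reach adds little to the offset.

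SNR10, a box H/ACA guide of pseudouridylation (chromosome VII, 345986 to 346230, plus strand), had a peak ending 5166 and 5645 bp past its 3′ end under Sen1 depletion and 696 and 692 bp past it under Top1 depletion. With RNase H its peak ended 1574 and 1253 bp past the gene under Sen1 depletion and 713 bp under Top1 depletion, so both strain pairs were apart. SNR72 to SNR78, 7 snoRNA genes made from 1 precursor, shared a single peak, which enters the counts and medians of the set once for each gene. Measured from SNR72, the last of them, it ended 4895 and 4835 bp away under Sen1 depletion and 581 and 554 bp away under Top1 depletion. Unlike SNR10, the cluster had ends of 794 and 657 bp in Sen1-AID cells with RNase H, close to 652 and 648 bp in WT cells.

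SNR3 ended 1980 and 1821 bp against 960 and 740 bp past its 3′ end without RNase H, and 1983 and 1653 bp against 980 bp with it. SNR60 ended 1031 and 1060 bp against 536 and 609 bp without RNase H, and 2313 and 1855 bp against 737 bp with it. At SNR3 the Sen1-depleted values were alike in both RNase H genotypes, and at SNR60 they were longer where RNase H was present. SNR24, SNR56, SNR63 and SNR65 had the lower or overlapping offset under Sen1 depletion; of these SNR63 ended 879 and 930 bp against 949 and 788 bp past its 3′ end.

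tRNA genes, short genes read by RNA polymerase III, showed small shifts. In the 52 with 1 peak in each library, the reach past the 3′ end was longer under Sen1 depletion in 35 and under Top1 depletion in 3. The median over all tRNA genes with 1 peak was 793 and 754 bp under Sen1 depletion and 621 and 504 bp under Top1 depletion. The median offset was 122 and 101 bp against 47.5 and 14.8 bp, and with RNase H 49.5 and 25.5 bp against -4 bp. The groups did not overlap in any of these, and the 4 against 3 test of the offset gave p = 0.143 (exact permutation test), or 0.0556 within RNase H genotype.

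Of the 28 position measures, the 2 groups did not overlap in 18, of which 15 were higher under Sen1 depletion and 3 under Top1 depletion. The 3 were the share of peaks over the 5′ end only among all coding genes (10.3 and 12.3% against 13.3 and 13.8%) and among coding genes outside the ribosomal protein set (11.4 and 14.2% against 17.7 and 19.4%), and the reach past the 5′ end of ribosomal protein genes (-50.5 and -11 bp against 352 and 43 bp, a negative value being a peak that begins inside the gene). Each lack of overlap has p = 0.333 in the exact permutation test of 2 against 2. Many of the 28 measures also share peaks or genes, so their count is not a count of independent results. In the 4 against 3 test 2 of the 28 had an unadjusted p under 0.05, the offset and reach of snoRNA and snRNA genes, and none passed after adjustment. The median reach past the 3′ end of all ribosomal protein genes with 1 peak was 1442 and 1167 bp against 682 and 586 bp without RNase H. With RNase H it was 748 and 545 bp against 672 bp, so there the groups overlapped.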

How the data were processed

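Each library had its own list of peaks, not pooled over replicates. Per the submitters' processing notes, Bowtie2, MACS2 and the sacCer3 build were used; their versions, the peak threshold, the control library and the handling of reads that match several copies are not given in the sources used here. Column 5 holds the authors' score per peak, between 50.07 and 2299.63 in the 4 lists. Its scale is not stated, so the score was ranked within its own list. The exception is the score limit, which kept peaks at or above 122.31, the median score pooled over the 4 lists. That limit compares scores between lists, and whether their scales match was not tested. Read depth is unknown.

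Samples were grouped by title and genotype label. Peaks of the 4 lists were merged where they overlapped by 1 bp or more, and a region was called for 1 group where both of its libraries held a peak and neither of the other did. Width, percentile and position were called where both values of a group lay above both of the other. Genes came from the RefSeq annotation of R64 (6431 nuclear genes), the assembly that sacCer3 names, with strand read from the systematic names; 5784 of 6002 coding genes had a length divisible by 3, so spans hold no untranslated regions. Of 386 gene names in the lists used, 4 were not found. Values per library were compared with exact two-sided permutation tests: 6 splits for 2 against 2, 35 for 4 against 3 (smallest p 0.0286), and 18 within RNase H genotype (smallest p 0.0556), with Benjamini-Hochberg adjustment. Scripts used Python 3.11.15, numpy 2.4.6, pandas 2.3.3, scipy 1.17.1 and matplotlib 3.10.9, and were tested on simulated peak lists.

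Genes were named by rule: the edited loci; the 6 top-ranked shared regions; the 12 top-ranked regions called in each direction; the 5 with the largest percentile and width differences in each direction; the 5 ribosomal protein genes with the largest offset differences in each direction; and up to 4 members of each class. Other genes named here (RPS23A, RPS7A, RPS20, PGK1, ENO2, ADH1, TDH2, TEF1, the snoRNA genes with their reach, and further members of small classes and of the 27 regions found in no other library) were chosen after their values were seen. Members and lists were chosen with earlier results of these data known. Alternatives were a score limit, equal list lengths, joined peaks, an overlap of 500 bp, 1 kb around each midpoint, removal of repeats and chromosome ends, genes with exactly 1 peak, each library left out, and a replicate block. Same-numbered replicates were checked for shared deviations over the 114 shared regions: the correlation was 0.029 for percentile and -0.16 for log2 width, so the numbers were not taken to pair the samples. Sequences were not used here.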

Additional observations from a re-analysis of the deposited data

Results flagged for a closer look

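In 3 measures the difference between Sen1 and Top1 depletion had opposite directions with and without RNase H, in every library. The median reach past the 3′ end of coding genes outside the ribosomal protein set was 330 bp longer under Sen1 depletion without RNase H and 94.5 bp shorter with it, a gap of 424.5 bp (exact permutation p = 0.278). With 1 kb around each midpoint the difference without RNase H was 39 bp and the groups overlapped. In coding genes of at least 4 kb it was 1155 bp longer without RNase H (2012 and 1811 bp against 787 and 726 bp) and differed by -245.5 bp with it (590 and 457 bp against 769 bp), a gap of 1400.75 bp (exact permutation p = 0.167). Once peaks on repeats and near chromosome ends were removed, the difference without RNase H was 328.5 bp in place of 1155 bp, and with 1 kb windows 764.5 bp, and the groups overlapped in both cases. Sen1-depleted cells had 10 fewer Ty genes touched than Top1-depleted cells without RNase H and 3 more with it (19 and 17 against 15), a gap of -13 genes (exact permutation p = 0.0556, the smallest this test can give). The p-values are not adjusted over the 39 measures compared in this way, and Top1 depletion with RNase H is 1 library.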

How the results depend on the processing

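Of the 28 position measures, 15 were recomputed under the alternatives. Their direction held, except that the share of peaks over the 5′ end only turned to 3.28 points higher under Sen1 depletion with 1 kb around each midpoint. Differences below are Sen1 minus Top1 depletion. With a score limit at the pooled median the covered genes turned to 5.5 (ribosomal protein), 4 (snoRNA and snRNA) and -2.5 (glycolysis), 55 regions were Sen1-only, 30 Top1-only and 38 shared, 15 shared regions ranked higher under Sen1 and 9 under Top1 depletion and 23 were wider under Sen1 depletion. The offset was then higher under Sen1 depletion in 45 genes (12 ribosomal protein genes) and under Top1 depletion in 32, and the 3′ reach under Sen1 depletion in 53 (11 ribosomal protein genes), in fewer genes by construction. With equal list lengths the covered genes turned to -4 (tRNA), -1 (transporter) and -1 (amino acid, nucleotide and lipid synthesis). With 1 kb around each midpoint they turned to -2.5 (glycolysis), -1.5 (chaperone) and -0.5 (synthesis), and 5 classes were higher under Sen1 depletion in place of 9. They moved further to -24 in place of -8 (ribosomal protein) and to -13.5 in place of -2.5 (snoRNA and snRNA), where the groups no longer overlapped. The offset and 3′ reach were each higher under Sen1 depletion in 68 genes (15 ribosomal protein genes) and under Top1 depletion in 35 (0 ribosomal protein genes for the offset). At a fixed width the offset and reach of a gene differ by a constant, so these counts are equal by construction and are 1 result. In the 4 against 3 test the ribosomal protein share of peaks differed by -4.25 (exact permutation p = 0.2), -5.02 (p = 0.429) and -7.52 points (p = 0.0571) under these 3 alternatives, and the snoRNA and snRNA offset and reach by 183 and 202 bp with 1 kb windows (both p = 0.0571); the cause was not tested. Leaving out 1 of the 4 libraries in turn gave 307 to 355 bp for that offset, 625 to 701 bp for that reach and -4.41 to -3.85 points for that share, where fewer splits cannot reach the threshold. It gave -1 to 20 covered tRNA genes, -0.5 to 2.5 transporter genes and -2 to 5 synthesis genes. A call needs fewer values with 3 libraries, and without 1 library 34 to 43 shared regions ranked higher and 8 to 35 were wider under Top1 depletion. The offset was higher under Top1 depletion in 87 to 122 genes (2 to 4 ribosomal protein genes), and under Sen1 depletion in 23 to 37 ribosomal protein genes. The 3′ reach was longer under Top1 depletion in 19 to 73 genes (0 to 4 ribosomal protein genes). The highest counts for Top1 depletion over all genes and regions came without its second library. Groups that had been apart overlapped for the chaperone, histone, initiation, ribosomal protein and recombination classes and the offset of other coding genes at the score limit, for the chaperone and initiation classes with equal list lengths, and for the cell wall, chaperone, histone and proteasome classes with 1 kb windows. The share of peaks over the 5′ end only overlapped at the score limit and without repeats. Leaving out repeats removed YPR158C-D and YHR214C-B (0 in place of a call). Joined peaks and a 500 bp overlap moved no count past 1.5 times. A replicate block has 4 arrangements and a smallest p of 0.5. It leaves each difference as it is, such as the 14.7 points in peaks over the 3′ end only. It therefore could not change any of the 39 results it was run on, and is no check of them. Read depth is unknown, so a missing peak does not show that Rad52 was absent.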
